A study of Homo sapiens with 4 samples.

Results

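The 10 genes described here are those of vascular endothelial growth factors (VEGFA, VEGFB, VEGFC), of their co-receptors (NRP1, NRP2, with the TGF-beta co-receptor ENG beside them) and of the hypoxia-inducible factors with their regulator (HIF1A, EPAS1, ARNT, VHL). They were taken by name: every row of 2 deposited peak lists whose gene symbol was one of the 10. The replicate 1 list held 40 unique peaks annotated to them out of 27669, and the replicate 2 list held 34 out of 25492. RNA bound by YBX1 was captured by RNA immunoprecipitation and sequenced in PANC-1, an established human pancreatic cancer cell line. By the labels' protocol all samples were crosslinked with UV light (254 nm, 400 mJ/cm2) and treated with RNase I before capture. The 4 samples were 2 immunoprecipitates made with a YBX1 antibody and 2 inputs made without one, with replicates 1 and 2 in each group. All 4 came from cells pretreated with vesicles (Evs) derived from CAFs, the usual abbreviation for cancer-associated fibroblasts. Samples without vesicles or with a control antibody were not analysed here, so the values describe YBX1-bound RNA over input in treated cells of 1 line. Whether the replicates came from separate cultures is not stated, so their spread may be technical, and in bulk samples fewer cells and less RNA per cell cannot be told apart.

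VEGF proteins are secreted signals for the growth of blood and lymphatic vessels. Neuropilins are co-receptors that bind VEGFs and class 3 semaphorins, and tumour cells often carry them. When oxygen is low, the alpha subunits made from HIF1A and EPAS1 escape recognition by the VHL protein, pair with the ARNT protein and turn on genes such as VEGFA. YBX1, of the cold-shock family of nucleic acid binding proteins, is found on many messenger RNAs and is known to affect their stability and translation.

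Each list compares the immunoprecipitate (IP) of a replicate with the input of the same number. A peak's reads are raw counts, not scaled to library size, and the headers do not say whether they come from the IP alone. The fold is the authors' enrichment of IP over input, and the false discovery rate is their estimate for each peak. Replicate 1 was the deeper list, with a median of 45 reads per peak against 15 in replicate 2. The deposited folds ran the other way, with medians of 9.33 and 25.31. The false discovery rate was 100% for 14262 peaks of replicate 2, among them 23 of the 34 peaks of the 10 genes; in replicate 1 these genes ranged from 0 to 21.43%. The lists hold no counts per sample, so no test over samples was possible, and each value is given for both lists. Peaks were called shared when they overlapped by 1 bp or more and named the same gene.

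Replicate 1 named 9 of the 10 genes and replicate 2 named 8. Over all 19443 protein-coding genes these shares were 46.4% and 44.2%. A shared peak was held by 7 genes (VEGFA, VEGFB, VEGFC, NRP1, HIF1A, EPAS1 and ENG), against 21.5% of protein-coding genes. The pair counted for VEGFB lay before that gene, inside DNAJC4, and was shared by annotation only. For VEGFB, VEGFC and HIF1A every shared peak had a false discovery rate of 100% in replicate 2. The lowest replicate 2 rates among shared peaks were 28.69% in NRP1, 31.64% in EPAS1, 41.8% in VEGFA and 58.56% in ENG. With a score of 200 or more required of both peaks, 2 genes (EPAS1 and NRP1) were left, against 4.71% of protein-coding genes. Peaks naming NRP2 stood in both lists without overlapping, ARNT was named in replicate 1 alone, and VHL was named in neither list, as were 42.1% of protein-coding genes. Of the peaks, 14 of 40 in replicate 1 (35%, 95% Wilson interval 22.1% to 50.5%) and 14 of 34 in replicate 2 (41.2%, 26.4% to 57.8%) were shared. Over all peaks the shares were 28.6% and 31.4%, both inside these intervals. Exons held 62.5% of the replicate 1 peaks and 41.2% of the replicate 2 peaks, against 33.1% and 31.1% of all peaks. Among peaks of the 10 genes the median count was 112.5 where shared and 35 where not in replicate 1, and 28 and 12 in replicate 2, and the ranges overlapped.

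**Figure D1:**
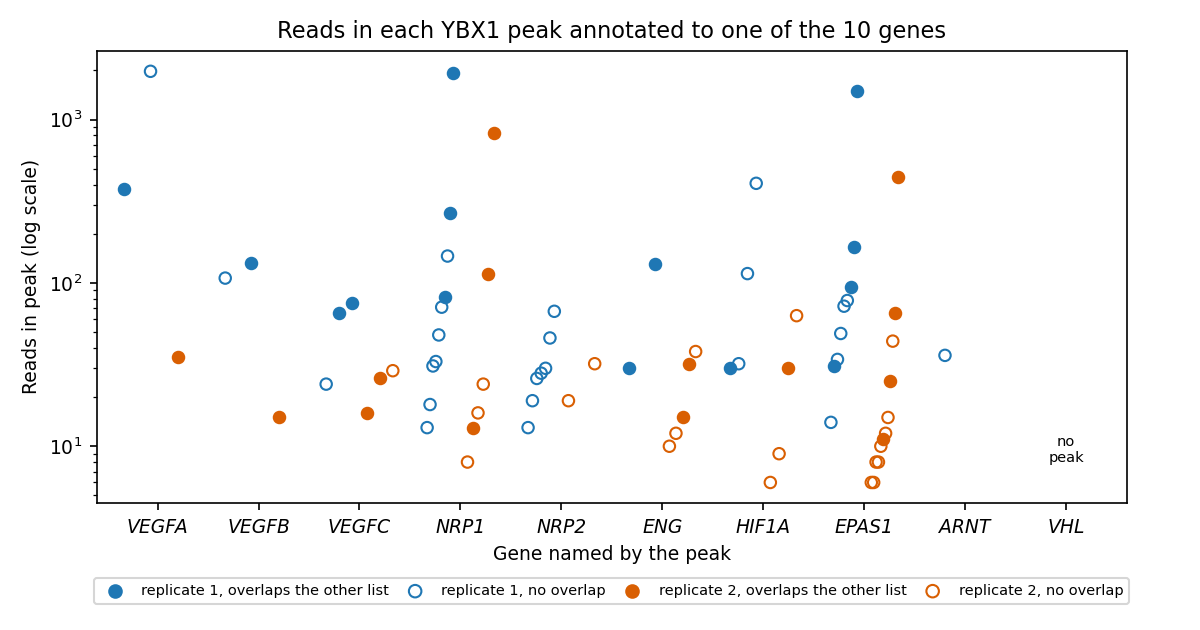
Reads in each peak annotated to one of the 10 genes (log axis); a point is a peak, blue for replicate 1 and orange for replicate 2, filled where it overlaps a peak of the other list that names the same gene. NRP1 and EPAS1 have peaks above 400 reads in both lists, VEGFA and HIF1A in replicate 1 alone, and VHL has none.

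VEGFA, the main growth factor for blood vessels, carried a shared peak just after its start and a far larger peak at its end that only replicate 1 listed. The peak at the start lay on chromosome 6 of hg19 at 43737957 to 43739101 in replicate 1 and at 43737980 to 43738416 in replicate 2. These began 12 and 35 bp after the listed start, so both lay inside the transcript although their class is promoter. The peak held 375 reads in replicate 1 (95% Poisson interval 338 to 415) and 35 in replicate 2 (24.4 to 48.7); these intervals, like the others below, cover counting error only. The replicate 1 count was thus 10.7 times the replicate 2 count, and 96.0% of all pairs had a lower ratio. The replicate 1 peak was also longer, 1145 bp against 437 bp. Per length the peaks held 32.8 and 8.01 reads per 100 bp. The pairs set each of the 8734 overlapping replicate 1 peaks against the replicate 2 peak with which it shared most bases, and their median ratio was 3.02.

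The authors' fold of this VEGFA peak was 3.86 in replicate 1, above only 4.21% of that list. In replicate 2 it was 139.22, above 99.7% of the list and the highest of the 34 peaks. The order of VEGFA among the 10 genes by fold therefore turned over between the lists. The peak at the VEGFA end, at 43752190 to 43754220, stopped 3 bp before the listed end and held 1974 reads in replicate 1 (1888 to 2063). That was the largest count of the 40 peaks, and 96.4% of all replicate 1 peaks had fewer reads. Its fold of 2.24 was nearly the lowest of the list, with 8 of 27669 peaks below it. No replicate 2 peak was listed there. The lowest fold that replicate 2 lists for any peak was 4.1, against 1.85 in replicate 1. Whether this bears on the missing peak was not tested.

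VEGFB, a growth factor tied mainly to the heart and other metabolic tissue, was a different case, because none of the peaks annotated to it lay inside it. The replicate 1 peaks at 502 and 1835 bp before its start on chromosome 11 (107 and 132 reads) and the replicate 2 peak 2068 bp before it (15 reads) all had their middles inside DNAJC4, which encodes a J-domain protein. Inside the bounds of VEGFB both lists held a large peak that the annotation gave to genes farther along the chromosome, FKBP2 and PLCB3 in both lists and LOC105369340 in replicate 2. It lay at 64005737 to 64006445 in replicate 1, with 1826 reads (1743 to 1912) and a fold of 8.36. In replicate 2 it lay at 64005362 to 64006346, with 576 reads (530 to 625) and a fold of 25.74. It overlapped by 610 bp, ended 291 and 390 bp before the listed VEGFB end, and no other listed gene held its middle. In replicate 1 96.1% of all peaks had fewer reads, and in replicate 2 96.2%. Per length it was the densest of the peaks at the ends of the 10 genes, with 257.5 reads per 100 bp in replicate 1 and 58.5 in replicate 2.

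VEGFC, the growth factor for lymphatic vessels, held 3 exon peaks in each list on chromosome 4, and 2 of them were shared. The peak at 177608413 to 177608749 in replicate 1 had 75 reads (59.0 to 94.0) and overlapped one at 177608354 to 177608740 with 16 reads (9.1 to 26.0) in replicate 2. Its folds were 53.85 and 67.5, above 99.9% and 96.3% of their lists, and it drops out when 20 reads are required in both lists. Its false discovery rate was 17.67% in replicate 1 and 100% in replicate 2. The second shared peak lay at the end of the transcript, from 177604400 to 177605143 in replicate 1, which runs 284 bp past the listed end. It held 65 reads in replicate 1 and 26 in replicate 2, with folds of 8.17 and 20.83. The third peaks held 24 and 29 reads at 59.4% and 57.8% of the span from start to end and did not overlap. Among 5045 genes with a shared peak, VEGFC ranked 7th by the smaller of its highest folds in the lists, and the next of the 10 genes, EPAS1, ranked 308th.

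The genes nearest to VEGFC by highest shared folds were XPO6 (48.79 and 67.57), FARP2 (47.89 and 67.27), FN1 (49.54 and 80.15), INVS (46.67 and 76.67) and NCAPD3 (46.67 and 57.33). The measure was the distance on the log2 scale over the 2 lists, from 0.14 at XPO6 to 0.31 at NCAPD3. The highest folds of a gene could come from different peaks.

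NRP1, a receptor for VEGFs and semaphorins, had more peaks inside its bounds than any other of the 10 genes in replicate 1, 10 with 2633 reads in all, and 6 with 1005 reads in replicate 2. Most of these reads lay in a single peak at the end of the transcript on chromosome 10. It spanned 33466466 to 33469314 in replicate 1 with 1922 reads (1837 to 2010), and 33466390 to 33469347 in replicate 2 with 831 reads (775 to 889). That was 73.0% and 82.7% of the reads in NRP1 peaks. Its folds were moderate, 7.31 and 13.89, above 30.1% and 22.2% of the lists, while its reads exceeded those of 96.3% and 97.4% of peaks.

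A second shared NRP1 exon peak, at 77.1% of the span, held 269 and 113 reads with folds of 5.55 and 11.66. The third shared peak lay in an intron at 45.3% of the span, with 82 reads and a fold of 19.29 in replicate 1 and 13 reads and a fold of 27.5 in replicate 2. The highest NRP1 fold in each list lay in an unshared peak. In replicate 1 it was 50.98, in an exon at 33481151 to 33481412 with 71 reads (55.5 to 89.6). In replicate 2 it was 54.17, in an intron at 33494948 to 33495383 with 16 reads (9.1 to 26.0). The remaining peaks were unshared, with 13 to 146 reads in replicate 1 and 8 to 24 in replicate 2. NRP1 was thus led by its end peak when peaks were ordered by reads and by other peaks when they were ordered by fold.

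NRP2, the second neuropilin, showed no such peak. Inside its bounds on chromosome 2 it held exon peaks with 28 and 30 reads in replicate 1, at 54.7% and 70.3% of the span. In replicate 2 it held an exon peak with 19 reads at 39.3% and an intron peak with 32 reads at 81.8%. None overlapped. Another 5 replicate 1 peaks annotated to NRP2 lay 62705 to 510234 bp before its start, with 13 to 67 reads, and their middles fell inside PARD3B, a cell polarity gene. Per length the NRP2 exon peaks of replicate 1 held 9.86 and 10.5 reads per 100 bp, and NRP1 peaks of that list ranged from 5.75 to 67.5. NRP2 thus had no peak near the density of the NRP1 end peak. How much RNA of each gene the cells hold was not analysed here.

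ENG encodes endoglin, a co-receptor for TGF-beta family ligands best known from endothelial cells. It held 2 shared pairs on chromosome 9. The first lay after its start, at 130616651 to 130616974 with 30 reads (20.2 to 42.8) in replicate 1 and at 130616581 to 130616886 with 15 reads (8.4 to 24.7) in replicate 2. Their folds were 18.73 and 63.28. The second lay at 74.0% of the span in replicate 1 and 74.8% in replicate 2, with 130 reads and a fold of 19 in replicate 1 and 32 reads and a fold of 126.56 in replicate 2. The annotation called it exon in replicate 1 and intron in replicate 2. Replicate 1 also held a peak of 250 reads (220 to 283) at the ENG end, 130577251 to 130577910, annotated to LOC102723566, and no replicate 2 peak overlapped it. The replicate 2 peak with the most reads annotated to ENG, 38, lay 12706 bp before the gene, inside the adenylate kinase gene AK1.

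Markers of other cell types were counted beside the shares of all protein-coding genes given above, 46.4% and 44.2% named and 21.5% with a shared peak. Of 10 endothelial markers (PECAM1, CDH5, KDR, TEK, TIE1, VWF, CLDN5, ESAM, EMCN, ROBO4), 0 were named in replicate 1, 2 (TEK and CLDN5) in replicate 2, and 0 held a shared peak. Of 10 fibroblast markers 3 and 1 were named (COL1A1 in both lists, PDGFRB and THY1 in replicate 1), and 0 held a shared peak. Of 6 markers of ductal epithelium 5 were named in each list and 4 held a shared peak (KRT7, KRT8, KRT18 and CDH1), and for 2 of these, KRT18 and CDH1, the highest peaks lay inside the gene in both lists. The share of RNA that came from vesicles was not tested.

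HIF1A, the oxygen-regulated alpha subunit of the first hypoxia-inducible factor, was named by 4 peaks in each list, with 1 shared pair. In replicate 2 only 3 of the 4 lay inside the gene, and the other, of 6 reads, lay 37986 bp before its start in no listed gene. The pair lay near the middle of the gene on chromosome 14, at 62188225 to 62188437 in replicate 1 and 62188157 to 62188606 in replicate 2, with 30 reads in each (20.2 to 42.8). Equal counts were unusual given the depth of the lists, since 4.52% of all pairs had a lower ratio. The peaks differed in length, however, with 213 bp in replicate 1 and 450 bp in replicate 2. Per length they held 14.1 and 6.67 reads per 100 bp. The folds were 9.24 and 24.17. The largest replicate 1 peaks annotated to HIF1A held 114 and 407 reads with folds of 2.9 and 3.88, and the replicate 2 peaks did not overlap them. At the end of HIF1A replicate 1 held a further peak, 62213582 to 62214871, with 515 reads (471 to 561) and a fold of 3.15. It was annotated to the antisense gene HIF1A-AS2, and since no strand of the reads is given, the genes cannot be told apart there. The same holds for HIF1A-AS1, which the replicate 2 peak near the start, of 9 reads, also names. The 4 lowest folds of the 40 replicate 1 peaks belonged to VEGFA and HIF1A. In replicate 2 the folds of HIF1A ran from 22.69 to 26.47.

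EPAS1 encodes the alpha subunit of the second hypoxia-inducible factor. Its shared peaks gathered in the last part of the gene on chromosome 2. All 4 shared pairs lay between 87.8% and 98.7% of the span. The largest covered the end of the transcript, from 46611553 to 46613862 in replicate 1 with 1489 reads (1414 to 1567) and from 46611628 to 46613820 in replicate 2 with 442 reads (402 to 485). Its folds were 9.09 and 11.93. The others held 166 and 65 reads, 95 and 25 reads, and 31 and 11 reads, with folds from 9.9 to 63.85 over the lists. The ratio of replicate 1 to replicate 2 reads in these pairs ran from 2.55 to 3.8, on both sides of the median of all pairs.

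Replicate 1 also held promoter peaks of EPAS1 with 78 and 14 reads, which began 21 and 1753 bp after the start, and replicate 2 listed none there. In replicate 2 another 6 peaks were annotated to EPAS1 but lay 111474 to 289823 bp before it, with 6 to 44 reads. Their middles fell inside PRKCE, a protein kinase C gene, and 2 of them overlapped replicate 1 peaks that did not name EPAS1.

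VEGFA, EPAS1, HIF1A and ENG had peaks of the promoter class that began after the start. For HIF1A this was a replicate 2 peak of 9 reads that began 1008 bp after the start and was not shared. VEGFA matched no promoter entry. The DNA before the starts of EPAS1, HIF1A and ENG is shown for context. YBX1 is named after the Y-box, a promoter element with the letters CCAAT. Sequences are from RefSeq on GRCh38.p14, gene strand, 5′ to 3′, bases 250 to 131 before the start; 7 of the 10 genes matched an entry. They lie outside the peaks, and the span of these genes in the peak lists differs by 11 to 119 bp from that on GRCh38, so the starts need not coincide. Capitals mark the letters CCAAT on either strand, and likewise the motifs ACGTG and also GCGTG, which are core letters of the hypoxia response element.
EPAS1, chr2:46297157-46297276, plus strand: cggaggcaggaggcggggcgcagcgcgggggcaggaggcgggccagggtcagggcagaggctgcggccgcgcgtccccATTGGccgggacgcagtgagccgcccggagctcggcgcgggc
HIF1A, chr14:61695263-61695382, plus strand: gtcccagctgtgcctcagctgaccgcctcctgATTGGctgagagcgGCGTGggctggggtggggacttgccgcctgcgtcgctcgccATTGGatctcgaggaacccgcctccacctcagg
ENG, chr9:127854789-127854908, minus strand: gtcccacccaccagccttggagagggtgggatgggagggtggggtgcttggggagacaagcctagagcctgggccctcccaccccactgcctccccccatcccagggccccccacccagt
The window held CCAAT on the opposite strand (read as ATTGG) once in EPAS1 and 2 times in HIF1A, and GCGTG once in HIF1A. The ENG window held none of the 3 motifs. Bases nearer the starts were not searched in any of the genes. Of 35116 RefSeq promoters, 14.9% held CCAAT in the same window, 8.30% ACGTG and 15.9% GCGTG.

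ARNT, the constant partner of both alpha subunits, was named by a single exon peak of replicate 1, with 36 reads and a fold of 14.87 at 150830737 to 150831008 on chromosome 1. By position it held more. A peak at its end was present in both lists and was annotated to CTSK, the next gene downstream, as an upstream peak. It spanned 150782200 to 150784562 in replicate 1 with 845 reads (789 to 904) and a fold of 5.5, and 150782332 to 150784601 in replicate 2 with 222 reads (194 to 253) and a fold of 12.4. The peaks overlapped by 2231 bp, and they held 93.6% and 89.9% of the reads in peaks inside ARNT. VHL, the ubiquitin ligase subunit that marks the alpha subunits for destruction, had no annotated peak, and the lists give no bounds for it by which to look for others.

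By the listed transcript bounds, without regard to the gene each peak was annotated to, replicate 1 held 39 peaks inside these genes and replicate 2 held 30, of which 6 and 5 carried another gene's name. By position 8 of the genes held a shared peak, with ARNT added to the 7 above. The matching shares by position over all genes were not computed, so these counts of inside and shared peaks stand without a background. Peaks at transcript ends were counted after the data were seen. A peak reaching within 500 bp of the end was found in 8 of the 9 genes with bounds in replicate 1, all but NRP2. Over 11252 protein-coding genes with bounds the share was 36.5%. In replicate 2 it was 5 of 9 (VEGFB, VEGFC, NRP1, EPAS1 and ARNT), against 26.5%, and the peaks of those 5 overlapped between the lists, against 19.1%. In VEGFA, HIF1A and ENG the end peak stood in replicate 1 alone, with 1974, 515 and 250 reads and folds of 2.24, 3.15 and 7.27. The genes were chosen with earlier results of these lists known, so the counts describe these genes and carry no test.

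**Figure D2:**
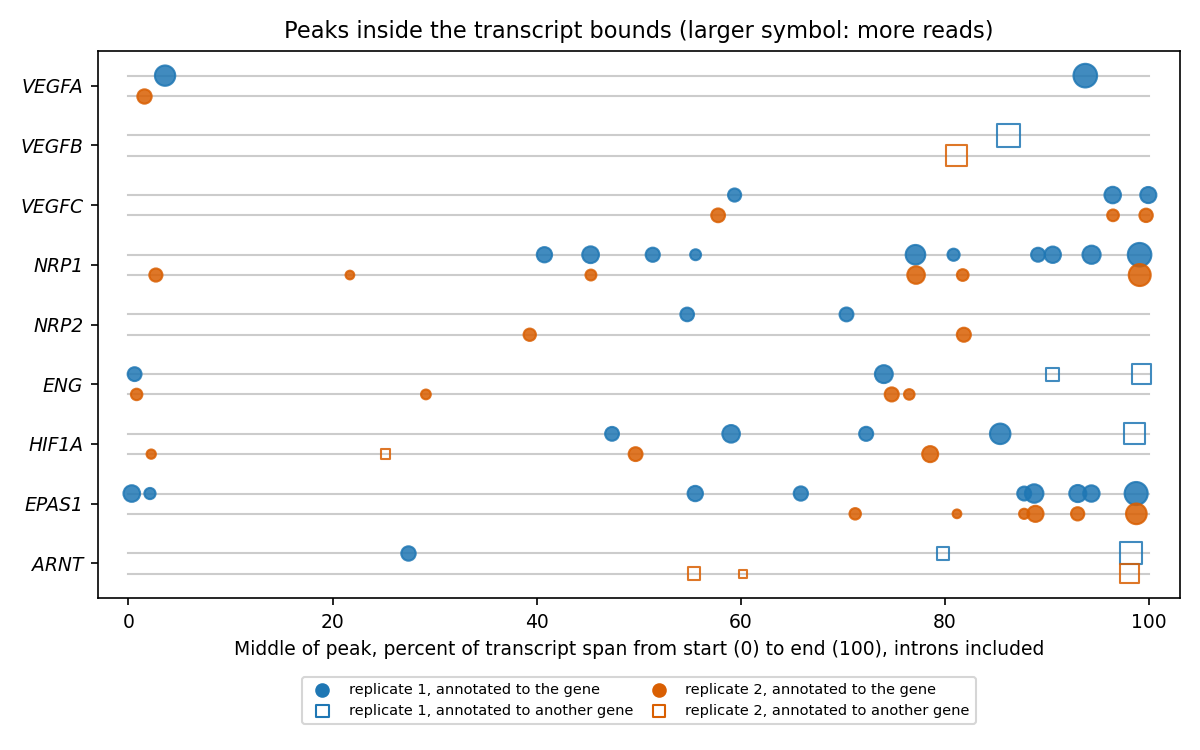
Middle of each peak inside the transcript bounds as a percent of the span from start to end (introns included); upper line replicate 1, lower line replicate 2, symbol area by log reads, circles annotated to the gene and squares to another gene. Large symbols gather at the right end, and those of VEGFB and ARNT are squares in both lists.

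Between genes, end peaks were compared per length within replicate 1. VEGFB had 257.5 reads per 100 bp, VEGFA 97.2, NRP1 67.5, EPAS1 64.5, HIF1A 39.9, ENG 37.9, ARNT 35.8 and VEGFC 8.74. In replicate 2 the order of the 5 genes present was VEGFB with 58.5, NRP1 with 28.1, EPAS1 with 20.2, ARNT with 9.78 and VEGFC with 4.58. These 5 stood in the same order in both lists. These levels are not divided by input. In replicate 1 the counting intervals of NRP1 and EPAS1 overlapped, as did those of HIF1A, ENG and ARNT, so the order within each of these sets is not settled.

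**Figure D3:**
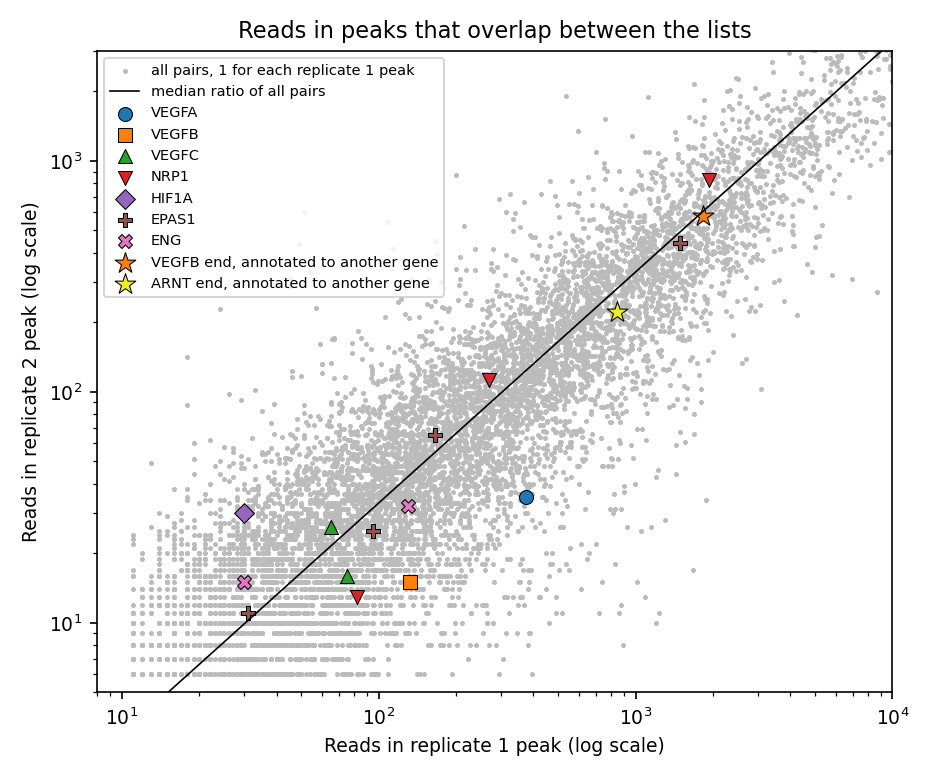
Reads of overlapping peaks in replicate 1 (x) and replicate 2 (y), both log axes. Grey points are the pairs (1 for each overlapping replicate 1 peak) that fall within the axes, and those with the most reads are cut off. The line is the median ratio of all pairs, 3.02. Coloured symbols are pairs naming one of the 10 genes, and stars are the end peaks of VEGFB and ARNT that carry another gene's name. VEGFA lies far below the line and HIF1A far above it. Counts are not divided by peak length, which differs between the lists for both.

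The ratio of replicate 1 to replicate 2 reads had a median of 3.09 over the 14 pairs and 3.02 over all pairs, where 5% of pairs lay below 1.03 and 5% above 9.83. VEGFA, at 10.7, lay above this range and HIF1A, at 1, below it. The VEGFB pair before its start (8.8) and the NRP1 intron pair (6.31) lay inside it but above 93.6% and 86.5% of all pairs. The remaining 10 pairs ran from 2 to 4.69. These ratios are of whole peaks and are not adjusted for peak length. Length differed between the lists for VEGFA (1145 and 437 bp), VEGFB (750 and 271 bp) and HIF1A (213 and 450 bp). It differed little for the NRP1 intron pair (618 and 631 bp). The end peaks of VEGFB and ARNT had ratios of 3.17 and 3.81. The annotation gave the same class in both lists to 10 of the 14 pairs.

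The folds of several leading peaks carried no more than the read count. In replicate 1 the fold equalled reads times 0.718, to within 0.005, in 8456 peaks (30.6%), and in replicate 2 it equalled reads times 4.22 in 7801 peaks (30.6%). Among the peaks of the 10 genes this held for 11 of 40 and 12 of 34, close to those shares. They include the leading VEGFC peak in both lists (75 and 16 reads), the NRP1 peak of fold 50.98 (71 reads) and the ENG start peak in replicate 2 (15 reads). For the peaks whose fold was reads times the constant, the order by fold within a list is the order by reads. The fold of 1 read differs between the lists. The replicate 2 folds of VEGFA (139.22) and of the second ENG peak (126.56) equalled 33 and 30 times the same constant, below their 35 and 32 reads. Folds at a whole multiple of the constant, up to the read count, made up 36.8% of all replicate 2 peaks and 15 of the 34.

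**Figure D4:**
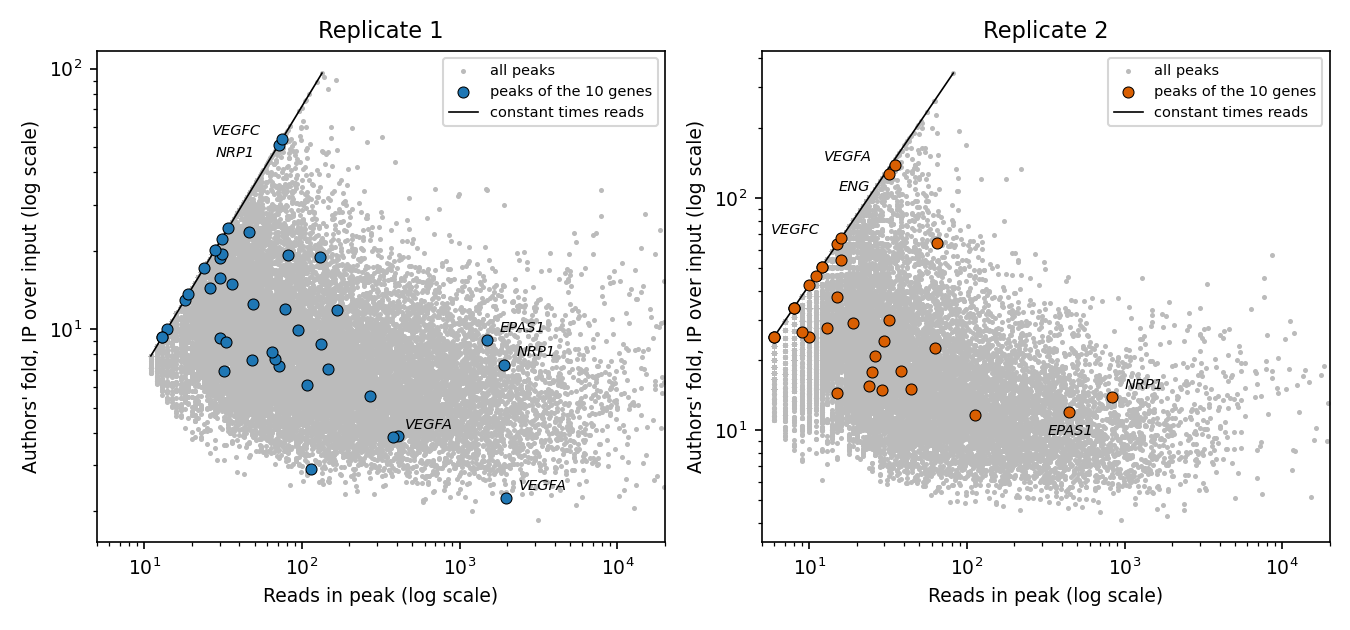
The authors' fold against reads in the peak for replicate 1 (left) and replicate 2 (right), log axes. Grey points are the peaks that fall within the axes, and those with the most reads are cut off. Coloured points are those of the 10 genes, and the line is 0.718 (left) or 4.22 (right) times reads. VEGFC lies on the line in both panels, while the NRP1 and EPAS1 end peaks lie far to its right at moderate folds.

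The wider pathway was described by 5 lists of 59 other genes. Each replicate named 32 of them, while replicate 1 named 46.4% of protein-coding genes and replicate 2 named 44.2%. Of the 59 genes 16 held a shared peak (27.1%, against 21.5% of protein-coding genes). Of the VEGF family and receptors, PGF and VEGFD were named in both replicates without overlap. The VEGF receptor genes FLT1, KDR and FLT4 were named in neither, as were 42.1% of protein-coding genes. Among 13 neuropilin partners 5 held a shared peak. The plexin PLXNA1, a signalling receptor, had highest folds of 24.69 and 59.06 (113 and 18 reads). PLXND1 had 16.83 and 21.83 (87 and 31 reads) and PLXNA3 had 10.38 and 25 (21 and 6 reads). The semaphorin ligands SEMA3C and SEMA3A had 7.99 and 54.18 (223 and 42 reads), and 7.19 and 10 (185 and 132 reads). All 5 peaks lay inside their gene in both lists.

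Among 12 genes of hypoxia factor control 4 held a shared peak. CREBBP, a coactivator, had folds of 47.85 and 85.71 (73 and 24 reads). The related EP300 had 11.79 and 36.62 (128 and 27 reads) in peaks outside its bounds. The prolyl hydroxylase EGLN2, which marks the alpha subunits for VHL, had 10.67 and 12.41 with 490 and 173 reads. CUL2, a scaffold of the VHL ligase, had 5.2 and 19.31 (72 and 25 reads). Of 9 endoglin partners 4 did. TGFBR2 had 38.77 and 84.37 (54 and 20 reads) and TGFBR3 had 25.13 and 33.75 (35 and 8 reads). The folds of TGFBR2 and TGFBR3 equalled reads times the constant in both lists. TGFBR1 had 3.56 and 6.26 (2775 and 803 reads). ACVRL1 had 7.97 and 13.7 (804 and 114 reads) in peaks upstream of the gene. Of 20 genes known to be induced by hypoxia 3 did (15%). Among them BNIP3, a mitophagy gene, had folds of 11.06 and 21.85 (195 and 86 reads). The demethylase gene KDM3A had 12.68 and 20.55 (54 and 25 reads).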

How the data were processed

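The submitters' processing notes name cutadapt 1.9.1, Bowtie2 2.2.4 and the hg19 build, with no roles; no source used here names what called the peaks. Per the file headers, each deposited peak carries a read count, a fold ratio, a score (minus 10 times the logarithm of p) and a false discovery rate in percent. The sheet names hold 0.001, read here as the p threshold. Lines were collapsed to unique peaks, with coordinates as deposited. Genes were keyed through RefSeq accessions (98.8% and 98.9% of lines) or symbols (1.05% and 0.900%). Bounds are those of transcripts in the lists. Python 3.11.15, pandas 2.3.3 and scipy 1.17.1 were used, and the overlap code was tested on simulated intervals. Intervals are 95% exact Poisson (reads) or Wilson (shares). No test was run, and settings for score, reads, class, overlap and bounds were varied. Named are the 10 genes, pathway genes with a shared peak (except 1 that is counted but not reported here), VEGF family genes and markers, and the 5 genes nearest to VEGFC. Genes and lists were chosen with earlier results of these data known.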

Additional observations from a re-analysis of the deposited data

How the results depend on the processing

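Of the values recomputed under other settings, 45 stayed (counts within 1.5 times, shares inside their interval, folds unchanged) and 24 moved. The count of 7 genes with a shared peak was 2 (EPAS1 and NRP1) at a score of 200 or more, 3 with exon peaks only and 4 with 50% overlap of both peaks, against 4.71%, 9.57% and 19.0% of protein-coding genes. With one list left out, 8 to 9 genes were named in the list that remained. At a score of 200 or more 2 genes and 3 peaks were left in replicate 2, and 10.3% (3 of 29) and 100% (3 of 3) of the gene set's peaks were shared. The whole lists then held 15293 peaks in replicate 1 and 1570 in replicate 2. The share over all peaks at this setting was not computed, so 10.3% and 100% have no background. NRP1 folds became 7.31 and 13.89 and the EPAS1 replicate 1 fold 11.81. With 20 or more reads 15 replicate 2 peaks were left, 60% of them shared, and here too the share over all peaks was not computed. VEGFC folds became 8.17 and 20.83, NRP1 7.31 and 13.89, and EPAS1 11.81 in replicate 1. Among the 10000 peaks of highest score in each list 20 and 16 named the genes. Exon peaks numbered 25 and 14, with NRP1 folds of 7.31 and 13.89 and an EPAS1 replicate 2 fold of 46.41. A gene with no shared peak left under a setting has no fold there. The cause of these moves was not tested. The 50% overlap setting kept all 27669 and 25492 peaks, while the score, read, highest-score and exon settings left fewer. The counts of genes with an end peak, added after the data were seen, were 7, 4 and 4 within 200 bp and 8, 5 and 5 within 1000 bp, for replicate 1, replicate 2 and both. No paired analysis was possible because each list already compares an IP with the input of its own replicate and no result comes from a test. The few reads of replicate 2 peaks, from 6 up, limit what their folds can show.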
